A study of Mus musculus with 17 samples.

Results

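The genes described here serve MHC class I antigen presentation, and 10 of the 22253 genes in the count table were taken by symbol: the light chain B2m, the heavy chains H2-K1, H2-D1 and H2-T23, the peptide transporter and loading genes Tap1, Tap2 and Tapbp, the regulator Nlrc5, and the immunoproteasome subunits Psmb8 and Psmb9. The libraries came from retinal pigment epithelium (RPE), the pigmented cell layer behind the photoreceptors, of Serpine3GFP/+ mice at 2 months. The Serpine3GFP allele has GFP inserted in exon 2 of Serpine3, so that cells using this gene are green, and all 3 groups carried the allele. There were 6 libraries of GFP+ RPE picked by hand, 5 of GFP- RPE from the periphery (labelled ctrl periphery) and 6 of GFP- RPE from the center (labelled ctrl center). Each library was a pool of cells of 1 mouse number and of 10 to 15 cells according to the sample labels, while the methods give a lower range. Of the 7 mouse numbers, 5 gave a library of every group (mice 1, 2, 4, 5 and 7), mouse 3 gave only GFP+ RPE and mouse 6 only central GFP- RPE. Mouse 1 stands for a pair of animal numbers in the labels.

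MHC class I molecules show peptides from inside the cell to CD8+ T cells. Proteasomes cut proteins into peptides, the TAP1-TAP2 transporter carries these into the endoplasmic reticulum, tapasin (Tapbp) holds the transporter and the empty heavy chain together, and the loaded heavy chain leaves for the surface with beta-2 microglobulin (B2m). Interferons raise most of these genes, partly through the transactivator Nlrc5, and exchange catalytic subunits of the proteasome for Psmb8 and Psmb9. The RPE forms part of the outer blood-retina barrier and belongs to the tissues of the eye regarded as immune privileged.

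Except for B2m on chromosome 2 and Nlrc5 on chromosome 8, the members lie on chromosome 17 (GRCm38, GENCODE M21). The light chain gene B2m spans chr2:122147686-122153083. Of the classical heavy chain genes, H2-K1 spans chr17:33996017-34000347 and H2-D1 spans chr17:35262730-35267499. The non-classical heavy chain gene H2-T23, whose product is known to present a leader peptide to receptors of natural killer cells, spans chr17:36029773-36032855. Tap1 (chr17:34187553-34197225) lies between the subunit genes, next to Psmb8 (chr17:34197721-34201454), and its exons overlap those of Psmb9 (chr17:34181987-34187764) on the opposite strand. Tap2 spans chr17:34203527-34216321, Tapbp spans chr17:33915899-33929292 and Nlrc5 spans chr8:94434356-94527272.

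Sequences before the RefSeq start sites are shown because letters known from interferon and NF-kappa B control sit in them and because the heavy chain genes share such a stretch. They are from RefSeq (GRCm38.p6), whose promoter table held 8 of the 10 members, the exceptions being Tap2 and Nlrc5. In each, capitals mark the motif letters found, and positions count back from the RefSeq start site. B2m is shown from base -160 to base -2 (chr2:122147527-122147685, plus strand), H2-K1 from -160 to -1 (chr17:34000348-34000507, minus strand), H2-D1 from -181 to -152 (chr17:35262913-35262942, plus strand) and H2-T23 from -134 to -105 (chr17:36032806-36032835, minus strand).
B2m: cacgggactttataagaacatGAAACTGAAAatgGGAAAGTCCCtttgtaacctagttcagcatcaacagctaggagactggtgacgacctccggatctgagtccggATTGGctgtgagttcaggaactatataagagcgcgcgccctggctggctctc
H2-K1: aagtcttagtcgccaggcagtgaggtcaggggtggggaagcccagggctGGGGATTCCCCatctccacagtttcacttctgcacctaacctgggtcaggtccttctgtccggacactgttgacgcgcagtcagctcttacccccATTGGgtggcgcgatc
H2-D1: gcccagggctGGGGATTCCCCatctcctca
H2-T23: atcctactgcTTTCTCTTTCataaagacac

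In B2m the capitals are the core of an interferon-stimulated response element (ISRE, GAAANNGAAA), a kappa B motif on the reverse strand and a CCAAT box on the reverse strand. In H2-K1 they are 2 overlapping kappa B matches and a reverse CCAAT box. The stretch printed for H2-D1 holds the same overlapping kappa B matches and matches the H2-K1 sequence from -121 to -92 at 29 of 30 bases. In H2-T23 the capitals are an ISRE core on the reverse strand. Within 250 bases before the start and on both strands, the ISRE core stood in 2 of the 8 members with a sequence (B2m and H2-T23) and in 3.04% of 27025 genes, and the kappa B motif in 3 members (B2m, H2-K1 and H2-D1) and in 7.01% of genes. The CCAAT box stood in 7 members, all but Psmb8, and in 34.5% of genes, whereas the interferon-gamma activated site (GAS, TTCNNNGAA) stood in Psmb8 alone and in 7.18% of genes. RefSeq and GENCODE place some starts differently: the windows of Tapbp, Psmb9, Tap1, Psmb8 and H2-D1 lie wholly in GENCODE exons, and in H2-T23 only the bases from -250 to -155 lie outside them. The stretches printed for H2-D1 and H2-T23, the GAS match of Psmb8 and the CCAAT matches of all members but B2m and H2-K1 therefore lie in annotated exons. Only exact matches of these letters were counted, so a gene without a match may still hold a variant of the element. These are matches of letters and not measured binding.

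Total counts ranged from 9896118 to 22467079 per library. Genes with at least 10 counts numbered 9089 to 10231 in GFP+ RPE, 7966 to 10543 in peripheral GFP- RPE and 5392 to 10450 in central GFP- RPE, and the median share of counts on mitochondrial genes was 8.57%, 17.7% and 27.3% in that order. Serpine3 had 107 to 576 counts in GFP+ RPE, 0 to 5 in peripheral GFP- RPE and 0 in every central library. Of 15 RPE markers, 12 had at least 10 counts in all 17 libraries, while Best1 had at most 2 counts. Because the pools were small, fewer cells with a transcript and less of it per cell cannot be told apart.

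B2m was the member found most evenly. Levels are given as CPM, counts scaled to library depth, here with TMM factors. In GFP+ RPE its level ranged from 797 to 1159 CPM with a median of 974 CPM, and in central GFP- RPE from 648 to 1827 CPM with a median of 890 CPM. The peripheral libraries held 885, 990, 1033, 888 and 738 CPM (mice 1, 2, 4, 5 and 7). The 3 groups overlapped, and the highest library, central GFP- RPE of mouse 4, stood well above the rest of its group. Group means ± SD were 965 ± 134 CPM (n = 6) in GFP+ RPE, 907 ± 114 CPM (n = 5) in peripheral and 1041 ± 425 CPM (n = 6) in central GFP- RPE. Per kb of transcript, which allows genes to be compared, B2m stood at 1134 CPM per kb over all libraries and ranked 52 of 21280 genes. The SD of its log2(CPM + 1) over 17 libraries was 0.33, against a median of 1.48 over the 10660 genes that passed the filter on low counts.

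The heavy chains were far lower and far more uneven. H2-K1 ranged from 12.7 to 109 CPM in GFP+ RPE (median 45.0 CPM) and from 0 to 88.0 CPM in central GFP- RPE (median 25.5 CPM). Its peripheral levels were 21.6, 22.3, 51.2, 15.2 and 2.08 CPM in mice 1, 2, 4, 5 and 7. Every GFP+ library held H2-K1, and the library without a count was central GFP- RPE of mouse 7, where a count of 0 allows up to 0.333 CPM (3 counts, counting error only). The means were 54.1 ± 34.9 CPM (SD, n = 6) in GFP+ RPE, 22.5 ± 18.0 CPM (n = 5) in the periphery and 31.3 ± 30.0 CPM (n = 6) in the center, with ranges that overlapped.

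H2-D1 ranged from 10.1 to 72.6 CPM in GFP+ RPE (median 34.2 CPM) and from 0 to 55.7 CPM in central GFP- RPE (median 10.5 CPM). Its peripheral levels were 14.4, 21.3, 40.7, 0.0794 and 45.5 CPM in mice 1, 2, 4, 5 and 7. All GFP+ libraries had at least 226 counts of it, whereas the central libraries of mice 4 and 7 had 0 and the peripheral library of mouse 5 had 1. The means were 37.0 ± 23.9 CPM (SD, n = 6), 24.4 ± 18.8 CPM (n = 5) and 19.8 ± 23.9 CPM (n = 6) in GFP+, peripheral and central libraries, so that the SD exceeded the mean in the center.

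The classical heavy chains did not keep a fixed ratio. H2-K1 made up 38.7% to 75.8% of the CPM of H2-K1 and H2-D1 together in GFP+ RPE, 4.37% to 99.5% in peripheral GFP- RPE and 23.8% to 100% in the 5 central libraries that held either. Their sum was 91.2 ± 52.2 CPM (SD, n = 6) in GFP+ RPE, 46.9 ± 28.1 CPM (n = 5) in the periphery and 51.2 ± 46.0 CPM (n = 6) in the center. Per kb, B2m exceeded this pair in every library that held either, by a median ratio of 22.9 in GFP+ RPE (range 9.08 to 107), 48.1 in the periphery (23.5 to 109) and 40.4 in the center (12.5 to 170). The central library of mouse 7 had 5845 counts of B2m and 0 of either heavy chain.

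H2-T23 had its highest mean in the center. It ranged from 2.68 to 27.7 CPM in GFP+ RPE (median 3.96 CPM) and from 4.07 to 57.1 CPM in central GFP- RPE (median 13.6 CPM). Its peripheral levels were 7.63, 6.32, 2.98, 16.4 and 6.33 CPM in mice 1, 2, 4, 5 and 7. The GFP+ library of mouse 3 and the central library of mouse 4 were high in their groups, which overlapped. Means were 9.31 ± 10.0 CPM (SD, n = 6), 7.94 ± 5.05 CPM (n = 5) and 18.8 ± 19.3 CPM (n = 6) in GFP+, peripheral and central libraries. The heavy chain genes are near copies in places: of the 50-base windows of each gene's longest coding transcript, 8.79% of H2-K1, 14.3% of H2-D1 and 28.8% of H2-T23 also occurred in a transcript of another gene, so that 50-base reads from these windows can be split between genes and the heavy chain levels are uncertain to that extent. B2m shared 0% of its windows.

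Of the loading genes, Tapbp was even and the TAP subunits were not. Tapbp ranged from 10.7 to 48.1 CPM in GFP+ RPE (median 40.9 CPM) and from 16.2 to 46.2 CPM in the center (median 26.0 CPM), and held 24.2, 7.77, 14.7, 38.0 and 31.7 CPM in the peripheral libraries of mice 1, 2, 4, 5 and 7. Of the 6 GFP+ libraries, 5 lay at 36.8 CPM or above and that of mouse 5 lay apart from them. Means were 36.6 ± 13.2 CPM (SD, n = 6), 23.3 ± 12.3 CPM (n = 5) and 27.79 ± 11.98 CPM (n = 6) in GFP+, peripheral and central libraries.

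Tap1 ranged from 0 to 23.3 CPM in GFP+ RPE with a median of 4.56 CPM. Peripheral levels were 0, 16.7, 3.95, 0 and 0.198 CPM in mice 1, 2, 4, 5 and 7. In the center, mouse 1 had 3.87 CPM, mouse 2 had 1.65 CPM and the other 4 libraries had 0. Thus Tap1 had at least 10 counts in 5 of 6 GFP+, 2 of 5 peripheral and 2 of 6 central libraries. Its means were 7.01 ± 8.73 CPM (SD, n = 6), 4.17 ± 7.20 CPM (n = 5) and 0.920 ± 1.59 CPM (n = 6) in that order.

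Tap2 ranged from 0 to 10.9 CPM in GFP+ RPE with a median of 6.24 CPM. Peripheral levels were 3.57, 7.41, 1.93, 0.318 and 29.3 CPM in mice 1, 2, 4, 5 and 7. In the center, mouse 2 had 14.8 CPM and mouse 6 had 0.450 CPM, while the other 4 libraries had 0. Tap2 had at least 10 counts in 5 of 6 GFP+, 4 of 5 peripheral and 1 of 6 central libraries, with means of 5.33 ± 4.07 CPM (SD, n = 6), 8.50 ± 11.9 CPM (n = 5) and 2.55 ± 6.03 CPM (n = 6).

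The transactivator Nlrc5 had a single count in each of 2 libraries, peripheral GFP- RPE of mouse 5 and central GFP- RPE of mouse 6, and 0 in the other 15. Psmb8 was at 0 in 13 libraries. It had 66 and 335 counts in the GFP+ libraries of mice 3 and 5, and 6 and 222 counts in the peripheral libraries of mice 1 and 2. Psmb9 was at 0 in 15 libraries and had 89 counts in the peripheral library of mouse 4 and 99 in the central library of mouse 1. No library held both immunoproteasome subunits. Reads of the overlapping Tap1 and Psmb9 exons cannot be told apart without knowing how strand was used, which is not given in the sources used here. The 2 libraries with Psmb9 had 82 and 46 counts of Tap1.

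Per kb over all 17 libraries, the order of the members was B2m (1134 CPM per kb), H2-K1 (22.7), H2-D1 (13.0), Tapbp (10.2), H2-T23 (8.32), Tap2 (1.53), Psmb8 (1.39), Tap1 (1.36), Psmb9 (0.549) and Nlrc5 (0.00120). The SD over libraries was 18.8 for H2-K1, 10.7 for H2-D1, 4.48 for Tapbp, 9.09 for H2-T23 and 2.21 CPM per kb for Tap2. Among these genes, neighbours from H2-K1 to H2-T23 differed by less than either SD, while the step from H2-T23 to Tap2 was less than the SD of H2-T23 and more than that of Tap2. The step from B2m (SD 305 CPM per kb) to H2-K1 exceeded both SDs. The order of the means changed by group. In GFP+ RPE, H2-K1 (33.4 CPM per kb, SD 21.5), H2-D1 (17.6, SD 11.4) and Tapbp (12.6, SD 4.55) stood above H2-T23 (6.33, SD 6.83). In the center H2-T23 (12.7, SD 13.1) came after H2-K1 (19.4, SD 18.5) and before Tapbp (9.59, SD 4.13) and H2-D1 (9.44, SD 11.4). Neighbours in either group differed by less than the larger of their SDs.

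**Figure D1:**
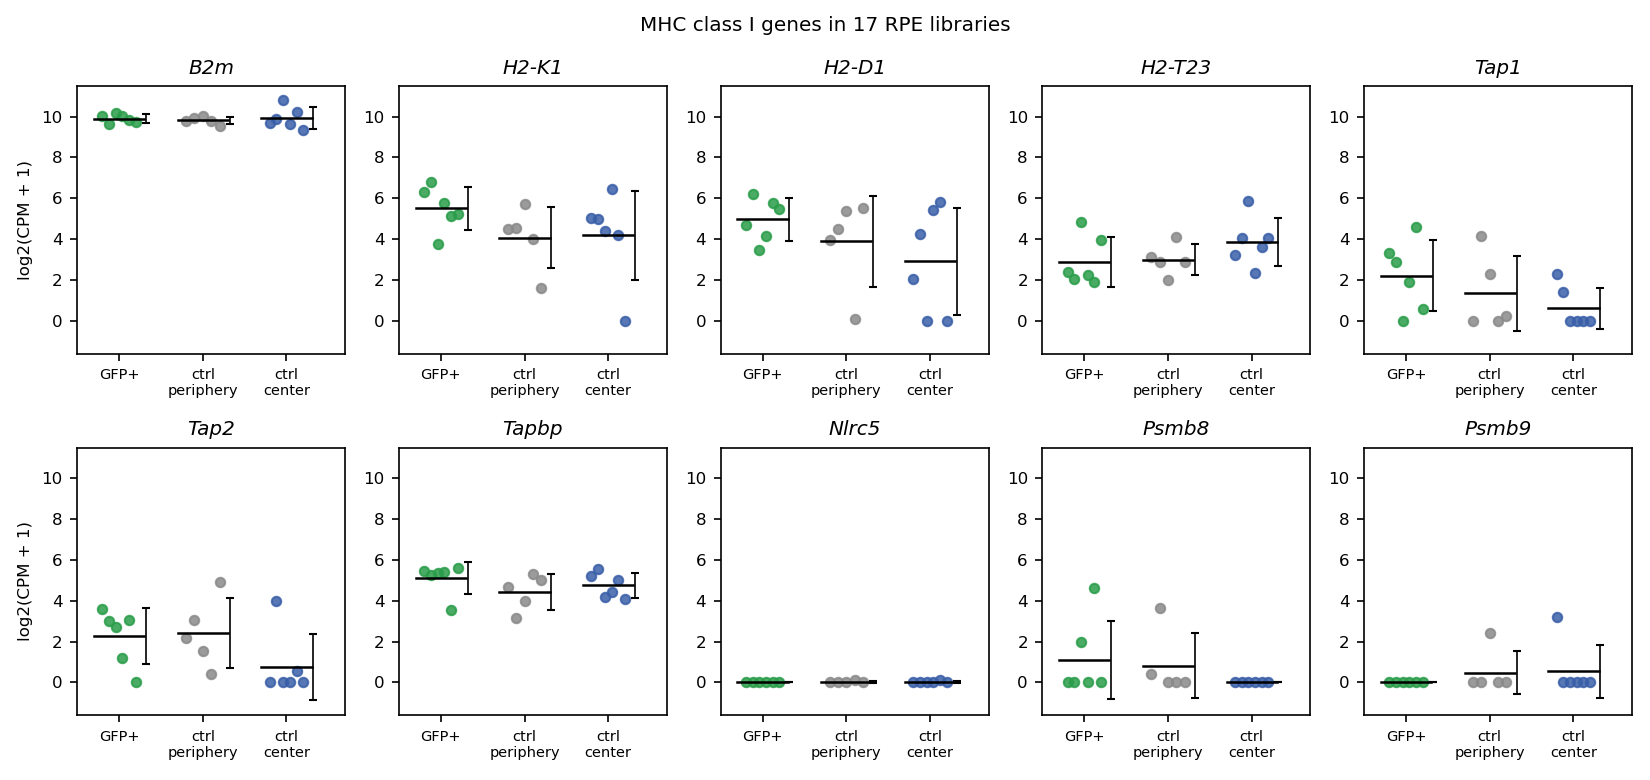
Level of each member as log2(CPM + 1) in 17 libraries, by group (GFP+, n = 6, ctrl periphery, n = 5, ctrl center, n = 6). Points are libraries, horizontal bars group means and vertical bars SD. B2m lies near the top in every library, H2-K1 and H2-D1 fall to 0 in central libraries, and Nlrc5, Psmb8 and Psmb9 lie at 0 in most libraries.

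The first comparison asked how GFP+ RPE differed from central GFP- RPE. H2-D1, H2-K1, Tap1, Tap2 and Tapbp had higher fitted levels in GFP+ RPE and B2m and H2-T23 lower ones, but no difference passed the test. With edgeR's quasi-likelihood test and Benjamini-Hochberg adjustment, 0 of the 7 members tested were called at an adjusted p under 0.01 and a log2 fold change over 1 in size, against 0.0431% of the 9286 genes tested. At an unadjusted p under 0.05 there were 0 members, against 5.8% of genes, and 0 of 10 members had group ranges without overlap, against 1.13% of genes. With each mouse as a block in the fit (replicate block), edgeR called 56 genes in place of 4, again with 0 members. Mice 3 and 6, which gave 1 of the groups each, add nothing to the contrast in that fit. DESeq2, which tested 8 members, called 1, Psmb8 (adjusted p = 6.24e-11), where the central libraries were all at 0 and only the GFP+ libraries of mice 3 and 5 had counts.

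On the log2 scale, the fitted difference of B2m was −0.16 ± 0.23 (SE), with a 95% interval from −0.64 to 0.32. H2-K1 differed by 0.65 ± 0.93 (−1.30 to 2.60) and H2-D1 by 0.82 ± 1.23 (−1.78 to 3.41). H2-T23 differed by −1.03 ± 1.03 (−3.20 to 1.14). The largest difference was that of Tap1, 2.79 ± 1.81 (−1.03 to 6.61; edgeR adjusted p = 1.00), followed by Tap2 with 1.05 ± 1.78 (−2.70 to 4.80), while Tapbp differed by 0.34 ± 0.60 (−0.94 to 1.61). The interval for B2m leaves out a change of 1 on the log2 scale in either direction. That of Tapbp leaves out a fall of 1 but not a rise, and those of the other members tested include both. The median over the members tested was 0.65, beside 0.00 over all genes tested. With the replicate block it was 1.66, where the median of all genes was 0.57. The block moved H2-D1 to 3.96, Tap1 to 4.59 and Tap2 to 6.20, without a member called. B2m alone turned its sign when a library was left out, to 0.03 without the central library of mouse 4. Without the central library of mouse 2, the only one of its group with more than 6 counts of Tap2, the Tap2 difference rose to 5.66. H2-T23 moved to −0.33 without the central library of mouse 4. Tap1 moved to 4.32 without the central library of mouse 1, to 1.92 without the GFP+ library of mouse 5, and to 5.40 with the range of animal numbers as a covariate.

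Within the 5 mice that gave every group, 3 of the 7 members tested kept 1 direction between GFP+ and central GFP- RPE, against 11.6% of genes. H2-D1 and Tap1 were higher in GFP+ RPE in 5 of 5 mice, and H2-T23 was lower in 5 of 5. In single mice these orders rest on few counts. Tap1 of mouse 7 had 10 counts (0.477 CPM) in GFP+ RPE and 0 in the center. H2-T23 of mouse 5 had 38 counts (2.68 CPM) in GFP+ RPE and 22 counts (4.07 CPM) in the center. H2-K1 was higher in 4 of 5, the exception being mouse 5 with 34.1 CPM in GFP+ RPE and 88.0 CPM in the center. The H2-D1 and Tap1 orders include central libraries at 0, and those libraries also held fewer genes: the 4 central libraries of mice 4 to 7 had 5392 to 8371 genes with at least 10 counts, those of mice 1 and 2 had 9723 and 10450, and the GFP+ libraries had 9089 or more. The part of library complexity in these orders was not tested.

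The animal numbers in the labels fall into 2 separate ranges, mice 1 to 3 and mice 4 to 7. Within the first, mean H2-D1 was 35.9 CPM in GFP+ RPE and 10.5 CPM in the center, and within the second 38.2 and 24.5 CPM. Mean Tap1 was 5.19 and 2.76 CPM within the first, and 8.83 and 0 CPM within the second. Mean H2-T23 was 11.7 and 12.1 CPM within the first and 6.96 and 22.1 CPM within the second. A change of the difference between these ranges was not detected for a member (edgeR interaction, lowest unadjusted p = 0.0229 for Tap1, adjusted p = 1.00).

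**Figure D2:**
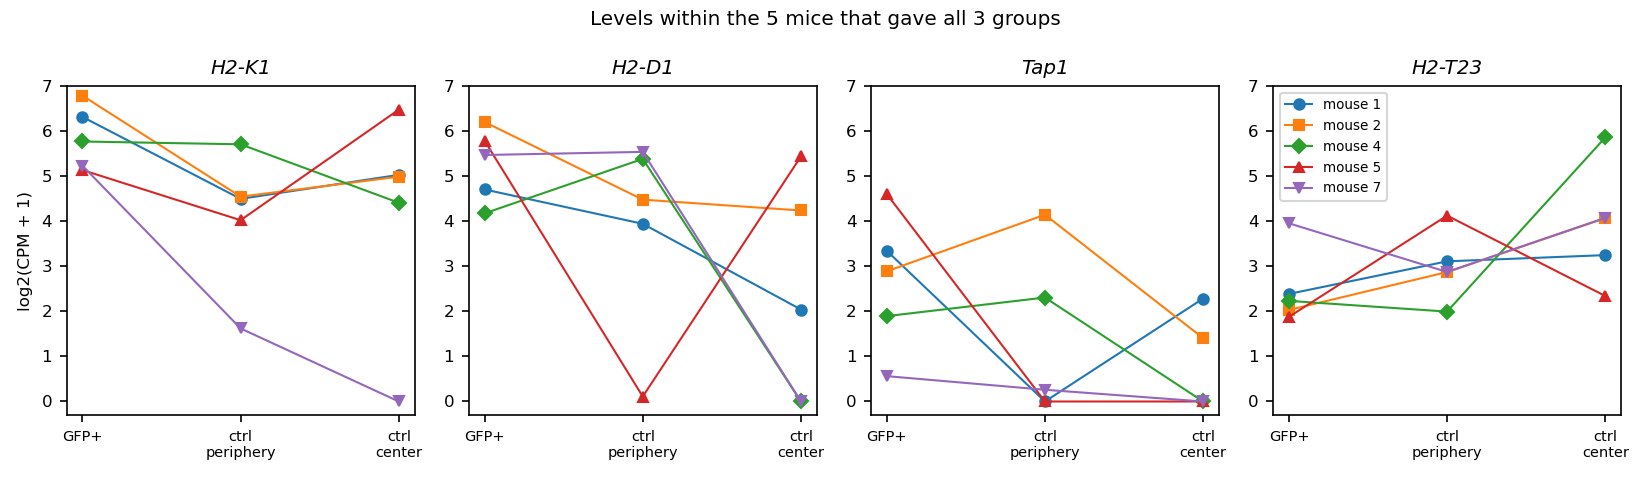
H2-K1, H2-D1, Tap1 and H2-T23 as log2(CPM + 1) in the 5 mice that gave all 3 groups. Each line joins the libraries of 1 mouse, with no error bars since each point is 1 library. From GFP+ to ctrl center, H2-D1 and Tap1 fall and H2-T23 climbs in 5 of 5 mice. H2-K1 falls from GFP+ to ctrl periphery in 5 of 5 mice, and the other steps to or from the periphery are mixed.

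The second comparison set GFP+ RPE against GFP- RPE of the same periphery, with the same GFP+ libraries as before. H2-K1 came closest to the test's limit. Its fitted difference was 1.32 ± 0.66 (SE) on the log2 scale, with a 95% interval from −0.09 to 2.72 and an edgeR adjusted p of 0.911, and it was higher in GFP+ RPE in 5 of 5 mice. Mouse by mouse the GFP+ and peripheral levels were 78.6 and 21.6 CPM, 109 and 22.3 CPM, 53.5 and 51.2 CPM, 34.1 and 15.2 CPM, and 36.6 and 2.08 CPM (mice 1, 2, 4, 5 and 7). The GFP+ library of mouse 3, which has no peripheral partner, held 12.7 CPM and lay below 4 of the 5 peripheral libraries. With any 1 library left out the difference ranged from 0.94 to 1.84.

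By edgeR, 0 of 7 members tested were called in this comparison, against 0.0396% of 10102 genes, and 0 had an unadjusted p under 0.05, against 5.58%. DESeq2 also called 0. Group ranges were apart for 0 of 10 members, against 1.29% of genes, and 1 of the 7 tested kept 1 direction in all 5 mice, against 11% of genes. With the replicate block edgeR called 0 genes in place of 4, and the fitted difference turned to −0.55 for H2-T23 and to 0.25 for Tap2 and moved to 2.42 for Tap1. B2m differed by 0.11 ± 0.17 (−0.25 to 0.47), H2-D1 by 0.66 ± 0.85 (−1.14 to 2.47) and H2-T23 by 0.21 ± 1.01 (−1.93 to 2.36). Tapbp differed by 0.67 ± 0.53 (−0.47 to 1.80), Tap1 by 0.78 ± 1.80 (−3.04 to 4.59) and Tap2 by −0.63 ± 1.38 (−3.56 to 2.31). The median was 0.66 over the members tested and 0.01 over all genes. Single libraries set the sign of 3 of these: Tap1 turned to −0.13 without the GFP+ library of mouse 5, H2-T23 to −0.50 without that of mouse 3, and Tap2 to 0.71 without the peripheral library of mouse 7. Tap1 rose to 2.79 without the peripheral library of mouse 2.

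The third comparison was between the GFP- groups, which share the libraries already used. By edgeR, 0 of 6 members tested were called between peripheral and central GFP- RPE, against 0% of 9535 genes, and 0 had an unadjusted p under 0.05, against 2.7% of genes. DESeq2, with 7 members tested, also called 0. Group ranges were apart for 0 of 10 members, against 0.755% of genes, and 0 of the 6 tested kept 1 direction in all 5 mice, against 8.43%. B2m differed by −0.25 ± 0.26 (−0.80 to 0.29), H2-K1 by −0.62 ± 1.16 (−3.07 to 1.82), H2-D1 by 0.20 ± 1.53 (−3.03 to 3.43) and H2-T23 by −1.24 ± 1.14 (−3.64 to 1.16). Tap2 differed by 1.72 ± 1.93 (−2.34 to 5.79) and Tapbp by −0.30 ± 0.80 (−1.99 to 1.38), and Tap1 did not pass the filter on low counts. The median was −0.28 over the members tested and 0.01 over all genes, and 0.02 and 0.49 with the replicate block. The block moved Tap2 to 6.84 and H2-D1 to 2.79 and turned H2-K1 to 0.19. Tap2 fell to 0.35 without the peripheral library of mouse 7. H2-T23 moved to −0.54 without the central library of mouse 4. H2-K1 turned to 0.14 without the central library of mouse 5. H2-D1 turned its sign, to between −0.03 and −0.17, when any of 5 single libraries was left out (peripheral mice 4 and 7, central mice 1, 4 and 7).

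**Figure D3:**
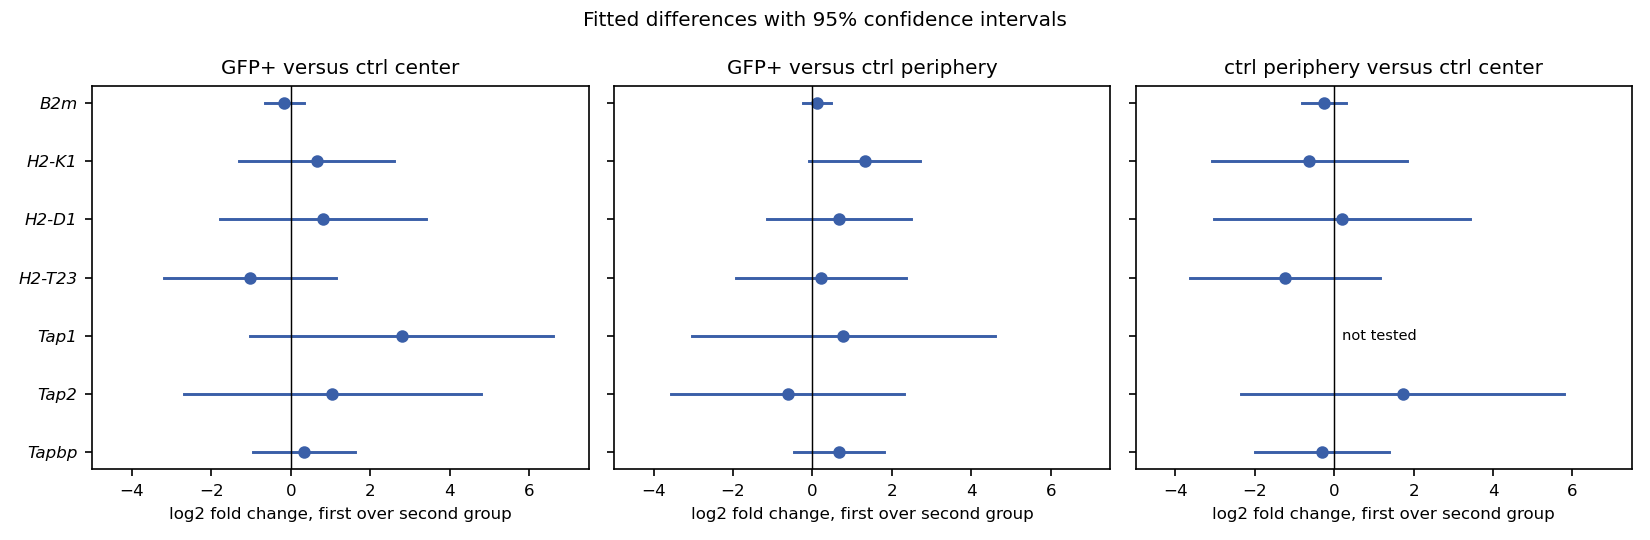
Fitted log2 fold change of each member tested (first over second group) in the 3 comparisons. Points are edgeR estimates and lines 95% confidence intervals, and the GFP+ comparisons share their GFP+ libraries. Each interval spans 0, those of B2m are the shortest, and Tap1 was not tested between the GFP- groups.

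The members did not rise and fall together from library to library. Over 17 libraries the 21 pairs of the 7 members that passed the filter had a median Pearson's r of 0.03 in log2(CPM + 1), and 9 pairs were negative. The highest was H2-K1 with H2-D1 (r = 0.49, Spearman's rho = 0.46). The lowest were H2-D1 with H2-T23 (r = −0.68, rho = −0.65) and Tap1 with H2-T23 (r = −0.63, rho = −0.70). H2-K1 with H2-T23 had r = −0.45. All of the heavy chains share sequence with each other. Of the 50-base windows of H2-T23, 4.08% occurred in H2-K1 and 7.10% in H2-D1, and 6.94% of those of H2-K1 occurred in H2-D1. The part of reads split between these genes in their correlations was not tested. These points share animals and library complexity, and some are at 0. The 5 other genes closest to the mean of the 7 standardized members over the same libraries were Ldhb (r = 0.88), Mpv17l (0.87), Snap23 (0.87), Scamp3 (0.87) and Psmd2 (0.86). Each had its highest group mean in GFP+ RPE, as did H2-K1, H2-D1, Tap1 and Tapbp. B2m and H2-T23 had theirs in the center and Tap2 in the periphery. Since these genes were picked from all that passed the filter for following the members, their group order adds nothing to that of the members.

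**Figure D4:**
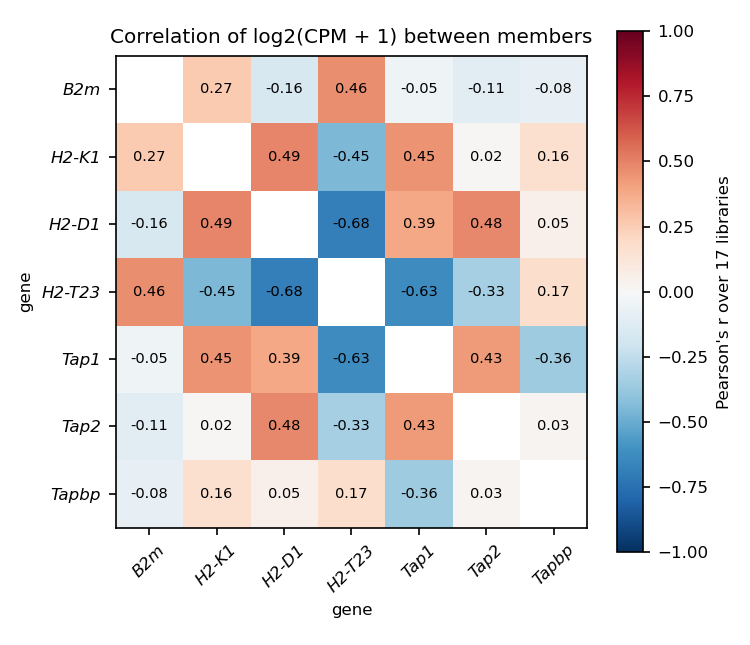
Pearson's r of log2(CPM + 1) over 17 libraries for each pair of the 7 members that passed the filter on low counts. Red is positive and blue negative, and the diagonal is left blank. H2-T23 is negative with H2-K1, H2-D1, Tap1 and Tap2, with −0.68 for H2-D1.

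The number of members found moved with the number of genes found. GFP+ libraries held 6 to 8 members at 10 counts or more, peripheral libraries 4 to 8 and central libraries 3 to 7. Over the 17 libraries this number and the count of genes found at that level had a Pearson's r of 0.75 and a Spearman's rho of 0.69, given as a description since the members are among those genes. For single members r with the number of genes was 0.53 for Tap1, 0.50 for Tap2, 0.36 for H2-K1 and 0.04 for B2m.

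**Figure D5:**
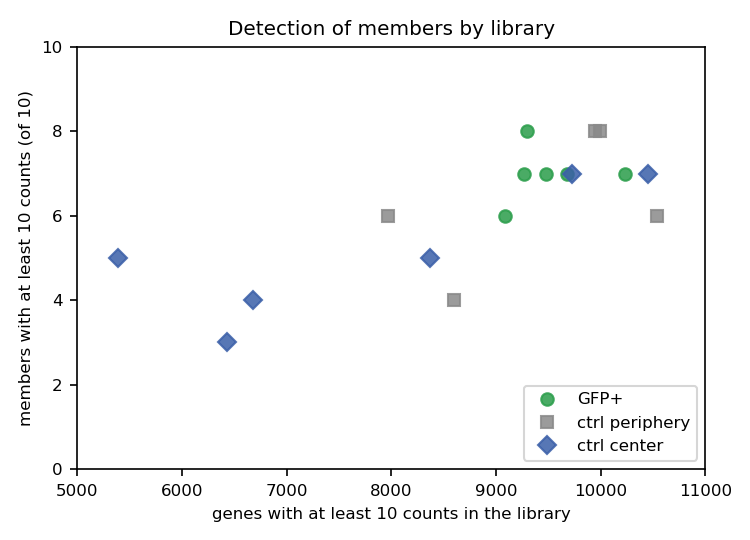
Members with at least 10 counts (of 10) against all genes with at least 10 counts, 1 point per library and 1 marker per group, without error bars. The 4 central libraries of mice 4 to 7 have the fewest genes of their group and 3 to 5 members, and all GFP+ libraries have 6 to 8.

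Other genes of the pathway were counted by list, with 0 called by edgeR and 0 by DESeq2 in every list and comparison. Values and unadjusted p-values are those of edgeR unless DESeq2 is named, and the shares of all genes at an unadjusted p under 0.05 were 5.8% against the center, 5.58% against the periphery and 2.7% between the GFP- groups. The constitutive 20S proteasome was found throughout, with 13 of its 14 genes at 10 counts or more in all 17 libraries. Psmb5 and Psmb6, which Psmb8 and Psmb9 replace, stood at 138 ± 23.1 and 216 ± 36.2 CPM (SD, n = 6) in GFP+ RPE. Between GFP+ and central GFP- RPE, 6 of the 14 genes had higher and 8 lower fitted levels (median −0.03 on the log2 scale), and 0 had an unadjusted p under 0.05. Against the periphery the split was 10 and 4 (median 0.20), and Psma2 (0.73 ± 0.25, SE; edgeR adjusted p = 0.684) and Psma7 (0.40 ± 0.18; adjusted p = 0.884) had an unadjusted p under 0.05. Of the 7 immunoproteasome and activator genes beside the members, 1 was higher and 6 lower in GFP+ RPE than in the center. Of these, the PA28 activator subunits differed by −0.80 ± 0.40 (Psme1) and −0.67 ± 0.36 (Psme2), and the catalytic subunit Psmb10 by −1.21 ± 0.85. Psmb10, unlike its partners Psmb8 and Psmb9, had at least 10 counts in 15 libraries.

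All 11 genes of peptide loading and trimming were tested, and 9 had higher fitted levels in GFP+ RPE in both of its comparisons (medians 0.45 and 0.22). The chaperone Hspa5 (BiP) had an unadjusted p under 0.05 against the center, with 1.24 ± 0.55 (SE; edgeR adjusted p = 0.757). Among 20 other class I and class I-like heavy chains in the table, 10 never reached 10 counts in a library and 5 were tested by edgeR in each comparison, without an unadjusted p under 0.05. DESeq2 also tested genes below edgeR's filter, among them H2-Q4. Its DESeq2 adjusted p was 0.0428 between GFP+ RPE (0.0359 ± 0.0425 CPM, SD, n = 6) and the center (0.836 ± 1.43 CPM, n = 6). H2-Q4 had at most 20 counts in any library and reached 10 counts in only 2 libraries. The neonatal Fc receptor chain Fcgrt, which also pairs with B2m, stood at 21.9 ± 13.3 CPM (SD, n = 6) in GFP+ RPE and at 9.25 ± 14.6 CPM (n = 6) in the center, with a difference of 1.28 ± 1.41.

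Of the 24 regulators, 20 were tested in each GFP+ comparison, with 11 higher and 9 lower in both. The interferon receptor chain Ifnar2 (0.95 ± 0.37, SE; edgeR adjusted p = 0.733) and the NF-kappa B subunit gene Nfkb1 (4.47 ± 1.80; adjusted p = 0.774) had an unadjusted p under 0.05 against the periphery. The interferon response list of 35 genes had 15 tested against the center, 11 of them higher in GFP+ RPE (median 0.90), with 3 of 15 at an unadjusted p under 0.05 against 5.8% of genes: Lgals3bp (0.90 ± 0.36; adjusted p = 0.598), Gbp3 (2.54 ± 1.12; adjusted p = 0.760) and Ifit1 (3.57 ± 1.69; adjusted p = 0.856). Ifit1 had at least 10 counts in only 7 of the 17 libraries. In GFP+ RPE it stood at 20.4 ± 37.6 CPM (SD, n = 6), with a maximum of 94.6 CPM in 1 library. Against the periphery 18 genes of the list were tested and 15 were higher (median 0.84). Of those tested, 4 were higher and 1 lower at an unadjusted p under 0.05, against 5.58% of genes. The medians of all genes were 0.00 and 0.01 in these comparisons. The lowest p-values there were those of Ifi27 (1.05 ± 0.30; adjusted p = 0.556), Ifit3 (1.77 ± 0.54; adjusted p = 0.584) and Lgals3bp (1.12 ± 0.37; adjusted p = 0.633).

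Class II genes were seldom found: 5 of the 11 never reached 10 counts, and 1, H2-DMb1, was tested (0.04 ± 1.50 against the center). H2-Aa and H2-Ab1 had at most 3 counts in any library. Of the 9 inhibitory ligands and receptors, the checkpoint ligand Cd274 (PD-L1) stood at 0.666 ± 1.06 CPM (SD, n = 6) in GFP+ RPE and 7.05 ± 6.55 CPM (n = 5) in the periphery, a difference of −3.35 ± 1.50 (SE; edgeR adjusted p = 0.851). Between the GFP- groups, Psme2 (−0.95 ± 0.42; adjusted p = 1.00) and Psma2 (−0.71 ± 0.32; adjusted p = 1.00) were the only genes of these lists at an unadjusted p under 0.05 by edgeR.

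Cells of the immune system and of vessels use class I genes at high levels, and their markers were low. Of 14 macrophage and microglia markers, 10 never reached 10 counts and C1qa, C1qb, Tyrobp and Lyz2 were at 0 in every library. Their summed level was 38.1 to 111 CPM in GFP+, 105 to 147 CPM in peripheral and 68.5 to 119 CPM in central libraries, most of it from Csf1r (35.6 to 146 CPM), which had at least 10 counts in all 17 libraries. Summed lymphocyte markers (6 of 11 never at 10 counts) reached at most 6.93, 3.26 and 19.5 CPM in the 3 groups. The central maximum was nearly all Nkg7, with 18.5 CPM in the central library of mouse 4. Nkg7 had a count in 2 libraries only. The central library of mouse 4 also had the highest B2m (1827 CPM) and H2-T23 (57.1 CPM) of all libraries. It had 20.3 CPM of H2-K1 and 0 counts of H2-D1, Tap1 and Tap2. Summed endothelial markers (7 of 13 never at 10 counts) ranged from 7.97 to 27.0 CPM in GFP+, 1.27 to 26.0 CPM in peripheral and 0.333 to 17.1 CPM in central libraries. Summed photoreceptor markers moved with the groups, from 60.7 to 134 CPM in GFP+, 80.6 to 153 CPM in peripheral and 122 to 239 CPM in central libraries. Summed choroid stroma markers ranged from 155 to 539 CPM, 119 to 244 CPM and 2.22 to 327 CPM in the same order, nearly all of it from Acta2 (0.185 to 538 CPM), while Col1a1 had at most 11 counts. The part of other cells in the levels of the members was not tested.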

How the data were processed

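The authors deposited raw whole-number counts for each gene symbol, made by SMART-Seq from polyadenylated RNA read in 50-base single ends. The submitters' processing notes name fastp, Salmon and GRCm38.p6, without versions or roles; the use of strand is not given in the sources used here. Salmon gives estimated counts, so these may have been rounded. All 17 columns were matched to samples by library name. Groups and mouse numbers came from the labels.

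Fits were made in R (version 4.3.3) with edgeR (version 4.0.16) on the libraries of the groups compared, with the default filter on low counts, TMM and the quasi-likelihood test, adjusted over all genes tested (Benjamini-Hochberg). A gene was called when its adjusted p was under 0.01 and its log2 fold change over 1 in size. CPM used TMM over 17 libraries, and CPM per kb the longest coding transcript in GENCODE M21. The pseudocount on the log2 scale was 1. Alternatives were DESeq2 (version 1.42.0), which the paper's methods name, other size factors, filters and designs, and each library left out. The procedure was tested on simulated counts with the same spread set for every gene, whereas the spread in these libraries differed between genes. Of 136 pairs of libraries none agreed within sampling noise (lowest chi-square per gene 69.2). Libraries of 1 mouse number come from 1 animal (a pair for mouse 1); the correlation of their deviations from the group means was −0.0195 to 0.0922 over 15 pairs, against −0.0882 to 0.110 over 81 pairs of different mice.

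The members and gene lists were chosen with earlier results of these data known. Of the members all were named. Of each list, the genes called and the 3 of lowest p were eligible. Psmb5, Psmb6, H2-Aa, H2-Ab1, H2-Q4, Csf1r, Acta2, Col1a1 and Nkg7 were named after their values were seen. The depth of 9896118 to 22467079 counts sets the level of 3 counts at 0.116 to 0.554 CPM. PCR copies were counted without molecular identifiers, so such limits cover counting error only.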

Additional observations from a re-analysis of the deposited data

Results flagged for a closer look

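In 8 of 27 groups of 5 or 6 libraries with any count, 1 library lay far from the others by Dixon's test on log2(CPM + 1), which chance alone marks in about 1 of 20 groups of continuous values. That rate does not apply to Psmb9 and Nlrc5, where all other libraries of the group were at 0 and the ratio is 1 by construction. Nor does it apply to Tap2 in the center and Psmb8 in the periphery, where 4 and 3 libraries were tied at 0. The number of groups marked can therefore not be set against that rate. The gap to the nearest library, as a share of the group's range, was 0.649 for H2-K1 at the central library of mouse 7 (0 counts). For Tap2 it was 0.866 at the central library of mouse 2 (270 counts). For Tapbp it was 0.818 at the GFP+ library of mouse 5 (10.7 CPM). For Psmb8 it was 0.886 at the peripheral library of mouse 2 (222 counts). It was 1 for Psmb9 at the peripheral library of mouse 4 (89 counts) and the central library of mouse 1 (99 counts), and 1 for Nlrc5 at the peripheral library of mouse 5 and the central library of mouse 6 (1 count each).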

How the results depend on the processing

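Of 180 member values under other settings, 177 kept their direction and stayed short of the threshold, and 3 turned their sign, all with the mouse as replicate block: H2-T23 to −0.55 and Tap2 to 0.25 between GFP+ and peripheral GFP- RPE, and H2-K1 to 0.19 between the GFP- groups. Of 226 values with 1 library left out, 216 kept their direction and 10 turned: the ranges were −0.26 to 0.03 for B2m (0.0334 without the central library of mouse 4) between GFP+ and central GFP- RPE, −0.50 to 0.70 for H2-T23, −0.13 to 2.79 for Tap1 and −0.95 to 0.71 for Tap2 between GFP+ and peripheral GFP- RPE, and −1.15 to 0.14 for H2-K1 and −0.17 to 0.77 for H2-D1 between the GFP- groups. Genes called between GFP+ and central GFP- RPE numbered 8 at an adjusted p under 0.05 with any fold, 202 with DESeq2 (1 member), 2 with at least 10 counts in 5 libraries, 56 with the mouse as replicate block, 1 with the range of animal numbers as covariate, and 1 to 3 with 1 library left out. Between GFP+ and peripheral GFP- RPE they numbered 67 with DESeq2, 0 with all 3 groups in the fit, 0 with the block, 1 with the covariate, and 0 to 5 with 1 library left out. Between the GFP- groups DESeq2 called 29. The block moved the median of all genes to 0.57 between GFP+ and central GFP- RPE and to 0.49 between the GFP- groups, and fitting without a filter moved it to −0.21 between GFP+ and central and −0.19 between GFP+ and peripheral GFP- RPE, so that member values there are to be read against it. The block called 0 members in every comparison. The causes were not tested. Small pools and counts at 0 limit the precision: the median SE over the members was 1.03, 0.85 and 1.15 on the log2 scale in the 3 comparisons.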
